A study of Mus musculus with 48 samples.

Results

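Gene expression of young epidermal stem cells (EpSCs) was compared between ZT16 and ZT4, times that lie 12 h apart in the early night and the early day. The comparison used the 4 arrays of young mice labelled T16 and the 4 of young mice labelled T4, chosen by age and time from 48 arrays in all. Every mouse was a wild-type female of strain C57B6/J with no further treatment named, and the cells came from the epidermis. Young mice were 8 weeks old. The rest of the series holds the other times of the young mice (ZT0, ZT8, ZT12 and ZT20) and all 6 times of aged mice (102 to 116 weeks), with 4 mice in each of the 12 groups. ZT counts hours from lights on. The series asks how daily expression in these cells differs between the ages, and ZT16 against ZT4 is a night-against-day contrast in the young. How the cells were isolated, and the light schedule, were not given in the sources used here.

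EpSCs are the basal keratinocytes and follicle cells that renew the skin. Like most cells they hold a circadian clock, a feedback loop in which the activators Clock and Arntl (BMAL1) bind E-boxes in DNA and switch on Period and Cryptochrome genes, whose proteins then inhibit the activators. Further loops run through D-box factors (Dbp, Tef, Hlf and their repressor Nfil3) and through Ror and Rev-erb receptors, which act on Arntl and its partner Npas2. Hormones of the daily cycle, glucocorticoids above all, reach skin cells from the blood and act on genes beside the clock.

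Values are log2 RMA signals of 1-colour Affymetrix arrays, 1 probe set per gene. A gene was called higher or lower where limma gave a Benjamini-Hochberg adjusted p under 0.05 over 12822 genes, in a fit that takes the spread from all 48 arrays. Changes are ZT16 minus ZT4 on the log2 scale with the standard error (SE) of the fit, and replicates are young arrays unless named otherwise. The 2 times were compared in the measures that follow, and ZT4 replicate 1 stood apart in others given below. Correlations between the 8 arrays lay between 0.974 and 0.997. Array medians, the difference of 3' and 5' signals in actin and Gapdh, the background of high-GC probes and the hybridisation controls did not pass an exact 2-sided permutation test between the times (p from 0.457 to 0.714, where 4 against 4 arrays allow no p below 0.0286). A test that does not pass does not show the arrays to be alike. Of the 48 arrays ZT4 replicate 3 had the highest such background (6.74). ZT16 replicate 2 had the highest actin difference (-0.02) and ZT16 replicate 3 the lowest Gapdh difference (-0.29). The basal markers Krt5 and Krt14 were at 12.70 ± 0.12 and 12.27 ± 0.04 at ZT16 and at 12.61 ± 0.15 and 12.38 ± 0.06 at ZT4 (SD, n = 4).

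More genes fell than rose. At ZT16 590 genes were higher (4.6%) and 1437 lower (11.2%) than at ZT4, and 3781 (29.5%) had an unadjusted p under 0.05. Of the called genes 51 rose and 69 fell at least 2 times, and 249 (1.94%) and 520 (4.06%) at least 1.5 times. The median change over all genes was -0.04. The numbers rest on single arrays. They were 236 higher and 727 lower without ZT16 replicate 3, 314 and 723 without ZT16 replicate 4, 293 and 706 without ZT4 replicate 1, and 319 and 1104 without ZT4 replicate 3. Array weights, by which limma counts scattered arrays less, gave 1133 and 2513.

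Clock genes moved more often up than down. Of 16 tested members of the core clock list 7 were higher and 1 lower at ZT16, and the median change was 0.32. Over all genes 4.6% were higher and 11.2% lower. Per3, Per2, Cry1, Ciart, Tef, Rora and Per1 made up the 7, and Npas2 was the 1. Promoter sequences of the called clock genes are shown first, since the clock is known to act on them through short motifs. RefSeq (GRCm38.p6) gives a start for 7 of the 8, and Per2 has no entry in the table used. Each window runs from 250 bases before the start to 50 after it, on the strand of the gene. Windows were searched on both strands for the E-box CACGTG, the E-prime-box CACGTT, the D-box TTATGTAA, the ROR site AGGTCA and the CRE TGACGTCA. None of these 5 contains another. Of the 10301 promoters of tested genes 9.93% hold the E-box, 5.26% the E-prime-box, 0.466% the D-box, 12.96% the ROR site and 3.09% the CRE. Capitals mark the motifs found. The Per3 window (chr4:151044616-151044915, minus strand) holds 2 D-boxes. In Ciart (chr3:95882179-95882478, minus strand) there are 3 E-boxes. Cry1 (chr10:85185005-85185304, minus strand) has an E-box with an E-prime-box (read as AACGTG) before it, and Tef has an E-box at each of its 2 starts (chr15:81802423-81802722 and chr15:81811164-81811463, plus strand). A match is a description of the sequence only.
Per3: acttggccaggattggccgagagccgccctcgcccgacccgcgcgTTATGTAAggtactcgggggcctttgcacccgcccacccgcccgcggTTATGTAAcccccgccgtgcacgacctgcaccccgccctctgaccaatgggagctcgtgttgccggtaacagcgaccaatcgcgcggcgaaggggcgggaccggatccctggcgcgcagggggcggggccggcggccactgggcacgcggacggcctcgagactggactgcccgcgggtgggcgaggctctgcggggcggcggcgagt
Ciart: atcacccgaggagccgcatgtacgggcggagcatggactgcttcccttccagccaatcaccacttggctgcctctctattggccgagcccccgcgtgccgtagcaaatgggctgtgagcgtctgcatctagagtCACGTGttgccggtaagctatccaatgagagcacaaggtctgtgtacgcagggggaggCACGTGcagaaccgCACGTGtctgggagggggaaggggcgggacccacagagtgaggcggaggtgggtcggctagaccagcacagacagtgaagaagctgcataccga
Cry1: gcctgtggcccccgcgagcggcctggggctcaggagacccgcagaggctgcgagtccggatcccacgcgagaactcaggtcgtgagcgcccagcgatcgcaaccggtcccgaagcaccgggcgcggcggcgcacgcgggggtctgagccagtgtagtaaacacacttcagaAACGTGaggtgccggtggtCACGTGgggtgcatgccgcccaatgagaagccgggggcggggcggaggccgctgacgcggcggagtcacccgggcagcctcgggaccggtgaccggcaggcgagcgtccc
Tef, first start: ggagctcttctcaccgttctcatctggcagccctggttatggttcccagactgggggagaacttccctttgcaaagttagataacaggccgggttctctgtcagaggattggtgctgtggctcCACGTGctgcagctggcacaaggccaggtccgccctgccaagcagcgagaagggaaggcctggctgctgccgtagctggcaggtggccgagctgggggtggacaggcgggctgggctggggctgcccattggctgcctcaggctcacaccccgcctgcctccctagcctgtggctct
Tef, second start: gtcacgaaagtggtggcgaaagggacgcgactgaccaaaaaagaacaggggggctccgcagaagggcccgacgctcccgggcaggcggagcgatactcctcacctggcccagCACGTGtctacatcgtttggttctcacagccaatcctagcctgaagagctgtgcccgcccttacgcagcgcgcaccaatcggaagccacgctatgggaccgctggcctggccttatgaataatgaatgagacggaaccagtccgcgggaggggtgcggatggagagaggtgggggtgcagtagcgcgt
The windows of Rora (chr9:68653536-68653835) and Npas2 (chr1:39194022-39194321) hold none of the 5 motifs, and the first of 2 Per1 windows (chr11:69098699-69098998) holds an E-box and a ROR site.

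Per2, whose protein inhibits Clock and Arntl (chromosome 1, 91415977 to 91459351), was at 7.76, 7.36, 7.32 and 7.26 in the ZT16 arrays and at 5.56, 4.97, 5.52 and 5.50 in those of ZT4. The times lie well apart, with the lowest value in ZT4 replicate 2. The change was 2.04 ± 0.21, a fold of 4.10 (limma, adjusted p = 7.09e-09). Per3, its relative with the D-boxes shown above (chromosome 4, 150997018 to 151044707), was at 8.27, 8.63, 7.96 and 7.38 at ZT16 against 5.57, 5.39, 5.99 and 6.26 at ZT4. All 4 ZT16 values were above all of ZT4, and Per3 had the largest rise of all called genes with a fold of 4.78 (2.26 ± 0.35, limma adjusted p = 2.41e-05). The size depended on the probe set. A second Per2 probe set was at a mean of 7.07 at ZT16 and at 3.55 at ZT4, under the dim limit of 3.96 (genes of lower mean were not tested), where a size of change has no firm meaning. Of the other 4 probe sets of Per3, 3 stood 0.44 to 1.30 higher at ZT16, and the fourth was under the dim limit at both times.

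Cry1, the Cryptochrome repressor (chromosome 10, 85131700 to 85185054), was at 6.01, 6.81, 7.64 and 7.15 at ZT16 and at 5.40, 5.35, 5.23 and 5.56 at ZT4. ZT16 replicate 1 was the lowest of its group but still above all of ZT4. The fold was 2.86 (1.52 ± 0.25, limma adjusted p = 7.37e-05). Its paralog Cry2 stood at 7.85, 7.84, 7.85 and 7.85 at ZT16, inside the ZT4 range of 7.49 to 8.16, and its change of 0.09 had a 95% interval from -0.29 to 0.47. The sign of the Cry2 change turned with cell mixture covariates (-0.09). Ciart (CHRONO), another repressor of the activators, was at 6.25, 6.27, 6.80 and 6.34 against 5.68, 5.20, 5.52 and 5.37, a fold of 1.96 (limma adjusted p = 3.18e-05).

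Of the D-box factors only Tef passed the test. Tef, which activates D-boxes, rose by 0.65 ± 0.15 (limma adjusted p = 0.00393), with every ZT16 array (8.88 to 9.27) above those of ZT4 (8.15 to 8.58). Dbp, of the same family, was at 6.71, 6.34, 6.27 and 5.93 at ZT16 and at 6.97, 5.92, 6.00 and 6.33 at ZT4. Those ranges overlap throughout, and the change of 0.00 had an interval from -0.48 to 0.49. Like levels at these times do not mean a flat course over the day. Young Dbp had means of 4.52 at ZT0, 7.79 at ZT8, 8.25 at ZT12 and 4.88 at ZT20. Hlf, the remaining activator of the family, changed by -0.34 (adjusted p = 0.148, and 0.0437 with array weights), and the D-box repressor Nfil3 by 0.10 (0.698).

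On the activators' side, Npas2, which can stand in for Clock, fell by 0.39 ± 0.13 on the log2 scale (limma adjusted p = 0.0358), with ZT16 at 7.16 to 7.25 and ZT4 at 7.42 to 7.71. Its call was lost without any 1 of the 4 ZT16 arrays or of ZT4 replicates 1, 3 and 4 (adjusted p up to 0.12), also after cyclic loess (0.132) and with cell mixture covariates (0.138), while a second probe set fell by 0.84. Arntl was at 8.94, 8.35, 9.01 and 8.89 at ZT16 and at 7.17, 8.68, 7.88 and 8.24 at ZT4, a change of 0.81 ± 0.35 that did not pass (limma adjusted p = 0.106). It passed without ZT4 replicate 2 (0.0464), and another probe set gave 0.29. Clock changed by 0.22 (0.366). Rora, an activator of Arntl, rose by 0.41 (adjusted p = 0.0181), a call lost without ZT16 replicate 3, ZT16 replicate 4 or ZT4 replicate 1 (adjusted p up to 0.161), with cell mixture covariates (0.0848) and in a fit of the 8 arrays alone (0.1). Nr1d2, a Rev-erb receptor that represses Arntl, changed by 0.17 (0.507, and by -0.07 with array weights) and the repressor Bhlhe40 by -0.21 (0.388). Over the day young Nr1d2 was not flat, with means of 9.36 at ZT8 and 7.07 at ZT20. Per1, which light and glucocorticoids also induce, rose by 0.54 ± 0.18 (0.0408), with ZT16 at 9.62 to 9.81 and ZT4 at 8.72 to 9.61. The Per1 call was lost without any 1 ZT16 array, ZT4 replicate 2 or ZT4 replicate 3 (adjusted p up to 0.193), without the filter on dim genes (0.0521), with the 8 arrays alone (0.0647) and with cell mixture covariates (0.0792).

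**Figure D1:**
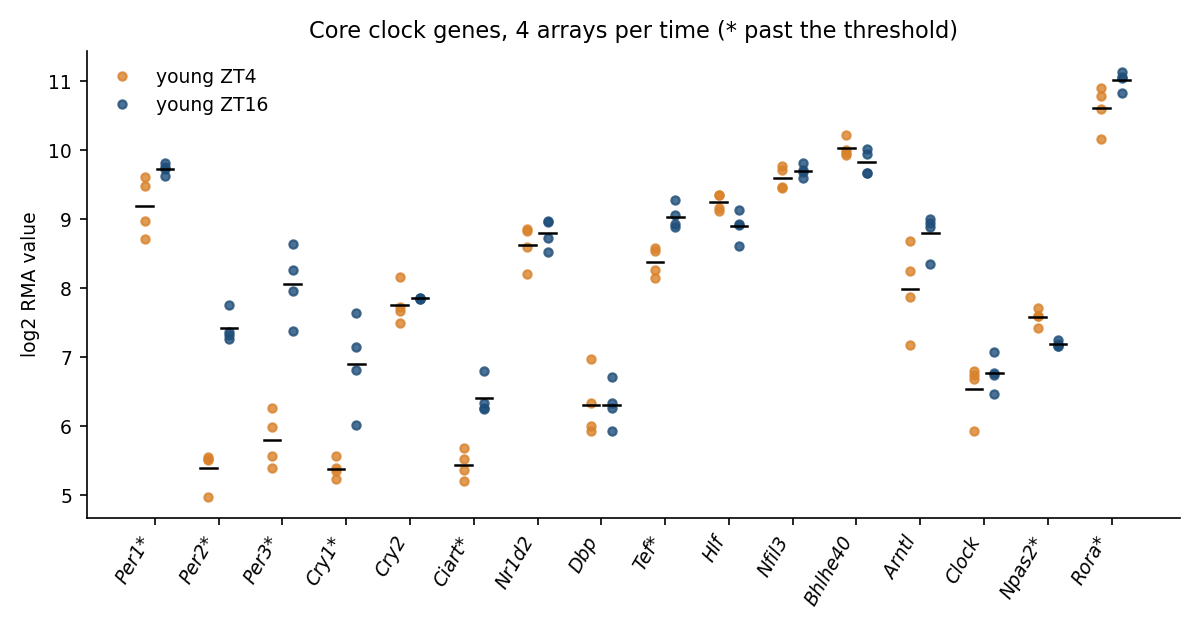
Log2 RMA value (vertical axis) of the 16 tested core clock genes (horizontal axis) in each young array, with orange points for ZT4, blue points for ZT16 and black bars for the means of 4 arrays. Per2, Per3, Cry1, Ciart and Tef show no overlap between the times, while Dbp, Cry2 and Clock do.

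Genes that glucocorticoids induce had the highest median change of the 24 pathway lists. The lists were chosen with earlier results of these data known, so the rank is a description and no test. Of 17 tested glucocorticoid-induced genes 8 rose and 0 fell, where 4.6% of all genes rose and 11.2% fell. All 17 lay above 0, where 42.4% of all genes did, and the median was 0.36 against -0.04 over all genes. In 13 of the 17 all ZT16 arrays were above all ZT4 arrays, where 4.35% of all genes were. The count was 5 without ZT16 replicate 2 or replicate 3 and 4 without ZT16 replicate 4 or ZT4 replicate 3. Per1 counts in both this list and the clock, and Pdk4 and Tsc22d3 also in the list of clock outputs. In whole-tissue or sorted-cell RNA, fewer cells of a type and less RNA per cell cannot be told apart.

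Tsc22d3 (GILZ), an anti-inflammatory protein that glucocorticoids induce (chromosome X, 140539528 to 140600522), was at 10.87, 10.61, 10.23 and 10.45 at ZT16 and at 8.19, 8.01, 8.73 and 8.65 at ZT4. No value of one time came within the range of the other, and the fold was 4.42 (2.14 ± 0.38, limma adjusted p = 0.000201). Pdk4, the kinase that shuts pyruvate out of the mitochondrial citrate cycle (chromosome 6, 5483351 to 5496278), was at 7.47, 8.00, 7.82 and 8.39 against 5.44, 6.48, 5.25 and 5.63. Here too the times were apart, with a fold of 4.66 (2.22 ± 0.36, adjusted p = 5.69e-05). Fkbp5, a co-chaperone that restrains the glucocorticoid receptor (chromosome 17, 28398753 to 28486149), was at 10.11, 9.84, 9.71 and 10.17 against 8.47, 8.03, 8.17 and 8.11, a fold of 3.40 (adjusted p = 0.00258). A second bright probe set of Fkbp5 rose by 1.75 and a second of Tsc22d3 by 2.08. Ddit4 (REDD1), which inhibits mTORC1, rose by 1.25 ± 0.25 (adjusted p = 0.000967). Angptl4, a secreted inhibitor of lipoprotein lipase, rose by 0.91 ± 0.27 (0.0189), but not past the threshold without ZT16 replicate 2, ZT16 replicate 4, ZT4 replicate 3 or ZT4 replicate 4 (adjusted p up to 0.0734), nor as the mean of its probe sets (0.0529).

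Pdk4 and Angptl4 were the 2 risers among 15 tested genes of fatty acid oxidation and fuel switch (0 fell, median -0.07), where 4.6% of all genes rose. Only 1 of these, Pdk4, was left without ZT16 replicates 2 or 4 or ZT4 replicates 3 or 4. The list of clock and light-responsive outputs had 5 of 14 members higher and 0 lower (3 without ZT16 replicate 3 or ZT4 replicate 1). They were Pdk4, Tsc22d3, the mitotic entry kinase Wee1 (0.85 ± 0.19, limma adjusted p = 0.00253) and, named after their values were seen, Lonrf3 (1.00) and Klf9 (0.34), a transcription factor induced by glucocorticoids.

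**Figure D2:**
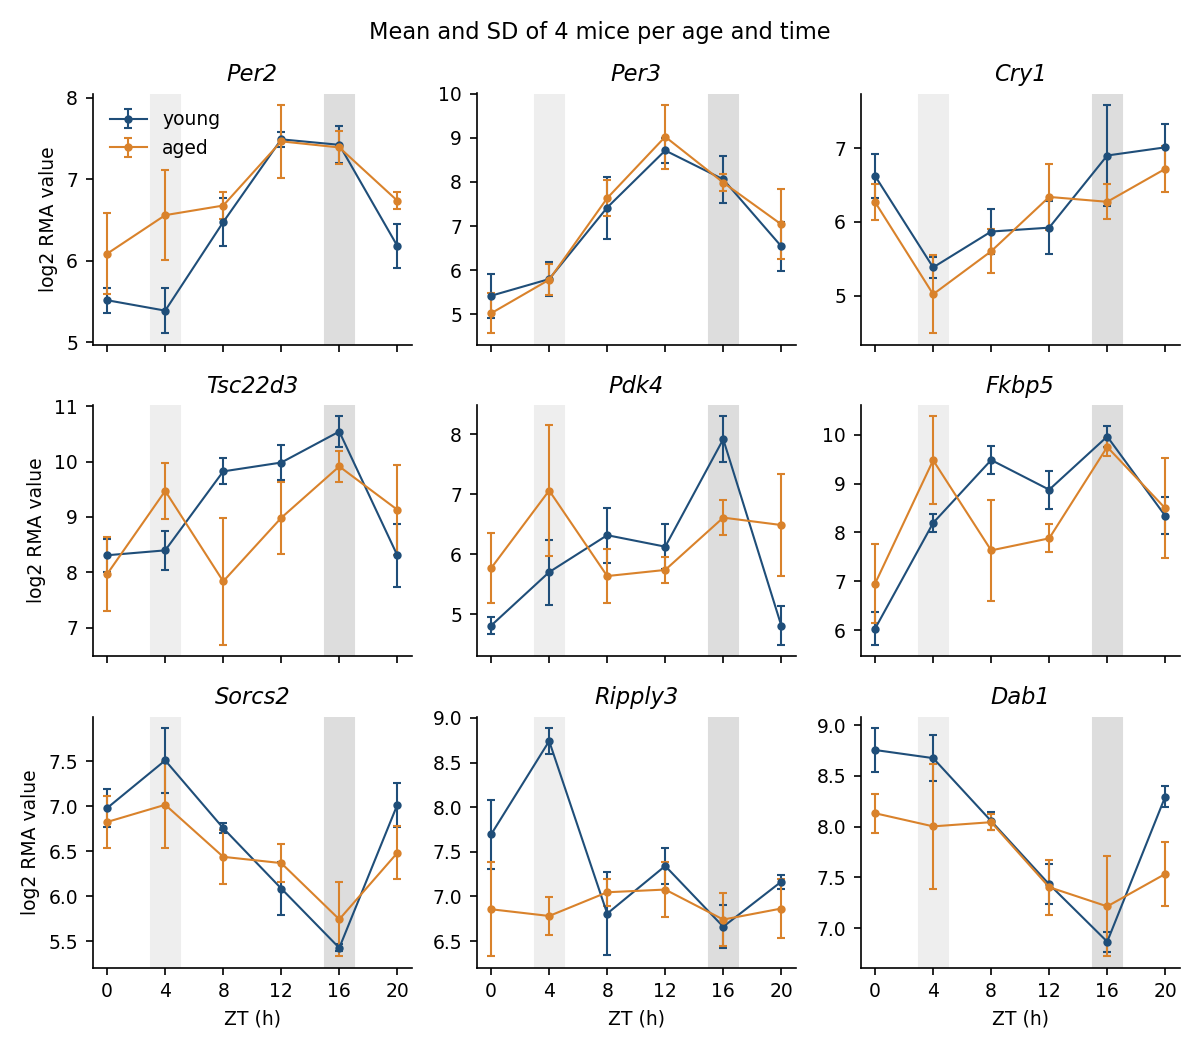
Mean log2 RMA value with SD bars of 4 mice (vertical axis) against ZT in h (horizontal axis) for 3 clock repressors (top), 3 genes of the glucocorticoid-induced list (middle) and the 3 largest falls (bottom), young in blue and aged in orange. Grey bands mark ZT4 and ZT16, where young Ripply3 goes from 8.74 to 6.66 and aged Ripply3 from 6.78 to 6.74.

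The other large rises belonged to genes of varied roles. Best2, a bestrophin anion channel, was at 6.15, 6.18, 5.82 and 6.10 at ZT16 and at 4.96, 4.26, 4.89 and 4.41 at ZT4, which do not overlap (fold 2.70, limma adjusted p = 1.18e-06). Its mean over the 48 arrays, 4.34, was near the dim limit of 3.96. The proteoglycan Spock2 rose 2.74-fold (adjusted p = 0.00158) and the zinc finger gene Zswim6 2.65-fold (0.00555), with no overlap in either. Rfx2, a transcription factor of ciliated cells, rose 2.74-fold (0.00227) by its brightest probe set, while its other 2, near or under the dim limit of 3.96, stood at -0.02 and 0.03, and the mean of all 3 did not pass (0.171). The scaffold gene Erc1 rose by 1.41 (0.00798, and 0.0614 without ZT16 replicate 3), and by 0.29 to 0.44 in its other 3 probe sets. Abtb2 was at 6.73, 8.11, 9.07 and 8.27 against 6.81, 6.46, 5.96 and 6.43. ZT16 replicate 1 lay within the ZT4 range, and the call (1.63 ± 0.49, adjusted p = 0.0199) was lost without ZT16 replicate 3, ZT16 replicate 4 or ZT4 replicate 3 (up to 0.114).

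Sorcs2, a sorting receptor of neurotrophin signalling (chromosome 5, 36017180 to 36398197), had the largest fall. It was at 5.40, 5.48, 5.40 and 5.44 at ZT16 and at 7.93, 7.07, 7.42 and 7.61 at ZT4, so that the ZT4 level was 4.23 times that of ZT16 (-2.08 ± 0.20, limma adjusted p = 3.78e-09). Ripply3, a co-repressor that acts with T-box factors (chromosome 16, 94328422 to 94336935), was at 6.91, 6.61, 6.77 and 6.35 against 8.85, 8.53, 8.76 and 8.82, with 4.22 times the level at ZT4 (adjusted p = 4.37e-09). Dab1, an adaptor of reelin signalling, was at 6.97, 6.81, 6.93 and 6.75 against 8.37, 8.66, 8.89 and 8.79 (-1.81 ± 0.20, adjusted p = 2.42e-08). In these 3 genes the times were separate by more than 1 on the log2 scale.

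The surface glycoprotein gene Thy1 fell by 1.79 ± 0.28 on the log2 scale (limma adjusted p = 4.01e-05), from 9.82, 9.95, 10.01 and 9.96 at ZT4 to 8.67, 7.60, 7.81 and 8.48 at ZT16. The ZT4 values were close together and those of ZT16 spread over more than 1. Cdkn3, a phosphatase that acts on cyclin-dependent kinases, fell by 1.69 (adjusted p = 1.22e-05) and Crispld2, a secreted protein, by 1.72 (0.00052). Ak1, which balances adenine nucleotides, fell by 1.65 (4.62e-05), although its second, dim probe set stood at 0.03. Rspo3, a secreted amplifier of Wnt signals, fell by 1.43 (0.00104), Slc16a14, of a monocarboxylate carrier family, by 1.41 (1.15e-05), Ttc9 by 1.40 (2.2e-06) and Cotl1, which binds actin filaments, by 1.34 (1.15e-05), where 4 dimmer Cotl1 probe sets fell by 0.12 to 0.71. In all of these the times did not overlap. All ZT16 arrays were below all ZT4 arrays in 13.9% of all genes and in 1167 of the 1437 called lower.

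Ribosome biogenesis is the making of ribosomes in the nucleolus. Over all genes tested 42.4% lay above 0, 4.6% were called higher and 11.2% lower. All 23 tested members of the ribosome biogenesis list lay above 0 (median 0.22), 7 rose and 0 fell. The count was 4 without ZT16 replicate 3, ZT16 replicate 4 or ZT4 replicate 3, and 11 with array weights. Wdr43, of the small subunit processome, was at 9.16, 9.59, 10.11 and 10.03 at ZT16 and 8.30, 9.15, 8.55 and 8.84 at ZT4 (fold 2.02, limma adjusted p = 0.000368), with no overlap by a small margin. Nolc1, a nucleolar chaperone of snoRNPs, rose by 0.72 (0.00212) and Nop58, of box C/D snoRNPs, by 0.55 (0.00227), each with overlapping groups. Heat shock chaperones had 4 of 16 members higher and 0 lower (median 0.17): the Hsp40 co-chaperones Dnaja1 (0.59, adjusted p = 0.00322) and Dnajb4 (0.60, 0.011), Hsp90aa1 (0.55, 0.0133) and, named after its value was seen, Chordc1 (0.31). Without ZT16 replicate 3 or ZT4 replicate 1 there was 1, and without ZT4 replicate 2 there was 1 lower. Dnajb4 and Hsp90aa1 lost their calls there (adjusted p up to 0.111 and 0.107). The Dnajb4 call was also lost with the 8 arrays alone (0.0829), and that of Dnaja1 with the mean of its 2 probe sets (0.0969), of which the second stood at 0.12. ZT4 replicate 1 was the lowest array for all 3 named Hsp genes.

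In 2 lists of energy and lipid supply the called genes were all lower, where 4.6% of all genes were higher and 11.2% lower. In oxidative phosphorylation, the respiratory chain and ATP synthase, 0 of 27 tested members rose and 11 fell, 25 lay below 0 and the median was -0.26. The ATP synthase subunit Atp5g1 fell by 0.55 ± 0.12 on the log2 scale, from 10.34 to 10.65 at ZT4 to 9.84 to 10.21 at ZT16 (limma adjusted p = 0.00152). Sdhb of complex II fell by 0.54 (0.00189) and Ndufb8 of complex I by 0.53 (0.0042). The count was 5 without ZT16 replicate 3, 6 without ZT16 replicate 4 or ZT4 replicate 1, and 7 with the 24 young arrays alone. Cholesterol synthesis had 0 of 17 higher and 5 lower (median -0.30), with 3 lower without ZT16 replicate 3, ZT16 replicate 4, ZT4 replicate 1 or ZT4 replicate 4, 1 higher without ZT16 replicate 1, and 9 lower with array weights. Nsdhl, which removes a methyl group of the sterol ring, fell from 8.06, 7.61, 7.94 and 7.65 to 7.32, 6.77, 7.01 and 6.78 (-0.85 ± 0.14, adjusted p = 7.37e-05). The reductase Dhcr7 fell by 0.62 (0.00253) and the farnesyl diphosphate synthase Fdps by 0.73 (0.00843), and Mvk (-0.51) and Sc5d (-0.52), named after their values were seen, also passed.

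Glycolysis was split, with 1 of 15 higher and 3 lower, where 4.6% of all genes were higher and 11.2% lower. Pfkfb3, whose product drives glycolysis through fructose 2,6-bisphosphate, rose by 0.96 ± 0.21 (limma adjusted p = 0.00204). Tpi1 fell by 0.39 (0.0111), Aldoa by 0.26 (0.0317) and, named after its value was seen, Aldoc by 0.61 (0.0358). The count of lower genes was 1 without ZT16 replicate 3, ZT16 replicate 4, ZT4 replicate 1 or ZT4 replicate 3, where Aldoa lost its call (up to 0.108, and 0.129 as the mean of its probe sets), and that of higher genes was 3 without ZT16 replicate 1.

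In the cell cycle 7 mitotic genes fell and 3 replication genes rose, with counts that depend on single arrays. Over all genes 11.2% were lower and 4.6% higher. Of 26 tested genes of G2 and mitosis 0 rose and 7 fell, 22 lay below 0, and the median was -0.30 (0.14 in aged cells). Cyclin Ccnb2 was at 4.74, 5.02, 5.18 and 5.34 at ZT16 against 6.46, 6.11, 5.50 and 6.22 at ZT4, with 2.01 times the level at ZT4 (limma adjusted p = 0.00504). The centrosomal kinase Nek2 fell by 0.67 (0.00654) and the mitotic kinase Plk1 by 0.42 (0.0221, lost without ZT16 replicate 3 or ZT4 replicate 1, up to 0.117, and with cell mixture covariates, 0.0939). The count was 2 without ZT16 replicate 3, 3 without ZT16 replicates 1 or 2 or ZT4 replicates 1 or 4, 4 without ZT16 replicate 4, and between 2 with cell mixture covariates and 12 with array weights. Of 31 S phase genes 3 rose and 0 fell (median 0.08). In aged cells 6 rose (median 0.41), and at the neighbouring young times (ZT12 and ZT20 minus ZT0 and ZT8) the median was 0.45. The 3 that rose in young cells at ZT16 were the sliding clamp Pcna (0.29, limma adjusted p = 0.0272), the histone mRNA binder Slbp (0.50, 0.0329) and Orc6 of the origin recognition complex (0.40, 0.0456). The young count was 0 without ZT16 replicates 2, 3 or 4 or ZT4 replicate 1, 1 without ZT4 replicate 2, and 0 with arrays centred on their median. Another bright Slbp probe set stood at -0.01, and the mean of all its probe sets did not pass (0.455). Pcna and Orc6 were not past the threshold with the 8 arrays alone (0.108 and 0.14). Without ZT16 replicate 1 there was 1 lower S phase gene. In DNA repair 1 of 24 rose, where 4.6% of all genes did, Rad51b (0.65, 0.00415, from the brighter of 2 dim probe sets, and 0.0938 with their mean). The dimmer Rad51b probe set stood at -0.17. In the same list 4 of 24 fell, where 11.2% of all genes did: Xpc, which finds damaged bases (-0.87, 0.000977), Parp1 (-0.55, 0.0096, and 0.0628 without ZT4 replicate 1) and, named after their values were seen, Rpa1 (-0.39) and Xpa (-0.58). Other Parp1 probe sets stood at -0.11 and -0.46. Without ZT4 replicate 1 there were 2 lower DNA repair genes.

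Wnt genes, which sustain skin stem cells, had 0 of 21 higher and 5 lower (4.6% and 11.2% over all genes), with a median of -0.20 (-0.21 in aged cells). The receptor Fzd10 was at 7.45, 7.06, 6.95 and 6.93 at ZT16 against 8.66, 8.05, 8.21 and 8.04 at ZT4 (-1.14 ± 0.16, limma adjusted p = 7.15e-06). Lgr6, an R-spondin receptor of follicle stem cells, fell from 8.41 to 8.75 at ZT4 to 7.35 to 7.94 (-1.01 ± 0.16, 5.69e-05), and both genes showed separate times. The ligand Wnt3 fell by 0.57 (0.0151, lost without ZT16 replicate 4 or ZT4 replicate 1, up to 0.0808), and Axin2 (-0.50), a Wnt target, and Fzd2 (-0.56) were named after their values were seen. The count was 3 without ZT16 replicate 3 and 2 without ZT16 replicate 4 or ZT4 replicate 1.

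Most other lists held few called genes, and over all genes 4.6% were higher and 11.2% lower. In the unfolded protein response 2 of 22 rose, Herpud1 (0.57, limma adjusted p = 0.00368) and Hspa5 (0.50), and 4 fell, Sdf2l1 (-0.93, 0.00354), Pdia4 (-0.42, 0.00741, and 0.0657 without ZT4 replicate 1), Calr (-0.41) and Pdia6 (-0.38). Hspa5, Calr and Pdia6 were named after their values were seen. The higher count was 5 without ZT16 replicate 1 and 1 without ZT16 replicate 3 or ZT4 replicate 1. Of 19 p53 targets 3 rose, among them Trp53inp1 (0.91, 0.0048) and the death receptor Tnfrsf10b (0.47, 0.00504), and 2 fell, among them Bbc3 (PUMA, -0.52, 0.00409). Mdm2 (0.51) and Ei24 (-0.43), named after their values were seen, were the others. The 2 lower of 19 are near the share over all genes. The lower count was 4 without ZT16 replicate 1, and 1 without ZT16 replicates 2, 3 or 4 or ZT4 replicates 1 or 3. Among 18 Nrf2 targets and antioxidants 3 rose and 0 fell: the mitochondrial dismutase Sod2 (0.47, 0.00107), Gsta4 (0.74, 0.00741) and Gclc (0.41, 0.0275), which was lost without ZT16 replicates 1, 3 or 4 or ZT4 replicates 1 or 3 (up to 0.102) and with the 8 arrays alone (0.0526).

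Over all genes 4.6% were higher and 11.2% lower, and lists with a single called gene in a direction are near those shares. Autophagy and lysosome had 2 of 17 higher, Ctsl (0.48, limma adjusted p = 0.0055) and Atg3 (0.36, 0.011), and 1 without ZT16 replicate 3 (Atg3, 0.0583). The Atg3 call was also lost as the mean of its probe sets (0.0758) and the 8 arrays alone (0.0687). One-carbon and serine enzymes had Mthfd1l higher (0.60, 0.0123) and Psph lower (-0.61, 0.0202, lost without ZT16 replicate 2 or ZT4 replicate 1, up to 0.104) of 13. With cell mixture covariates neither passed (0.0589 and 0.062). Those counts were 2 higher and 0 lower without ZT16 replicate 2 or ZT4 replicate 1, and 2 lower without ZT16 replicate 1. Notch had Numb higher (0.41, 0.0284) and its feedback inhibitor Nrarp lower (-0.46, 0.0301) of 15. Neither passed without ZT16 replicate 3, ZT16 replicate 4, ZT4 replicate 1 or ZT4 replicate 3, nor Numb without ZT4 replicate 4 (up to 0.109 and 0.114). Neither passed with cell mixture covariates (0.0787 and 0.0589). The alarmin Il33 fell by 1.17 ± 0.15 (1.02e-06) and the cornified envelope gene Sprr2a1 by 1.67 (0.00822), the 2 called of 16 genes of stressed keratinocytes and inflammation, where 2 rose without ZT16 replicate 1. These 2 lower of 16 are near the 11.2% of all genes. Of 19 basement membrane and adhesion genes Cd151 (-0.35, 0.00422) and collagen Col7a1 (-0.54, 0.0275) fell, again near the 11.2% of all genes. Col7a1 was lost without ZT16 replicates 2, 3 or 4 or ZT4 replicates 2 or 3 (up to 0.108), and the lower count was 1 without ZT16 replicates 2, 3 or 4 or ZT4 replicate 2, with 2 higher without ZT16 replicate 1 and 1 without ZT4 replicate 2. Ccn2 was the 1 of 22 immediate early genes that rose (1.04, 0.0344, lost without ZT16 replicates 2 or 3 or ZT4 replicates 3 or 4, up to 0.14), near the 4.6% of all genes. By limma 0 of 14 interferon-stimulated and 0 of 18 TGF-beta and BMP genes were called, with 1 and 2 at an unadjusted p under 0.05, and 1 and 2 TGF-beta and BMP genes rose without ZT16 replicate 1 and ZT4 replicate 2.

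**Figure D3:**
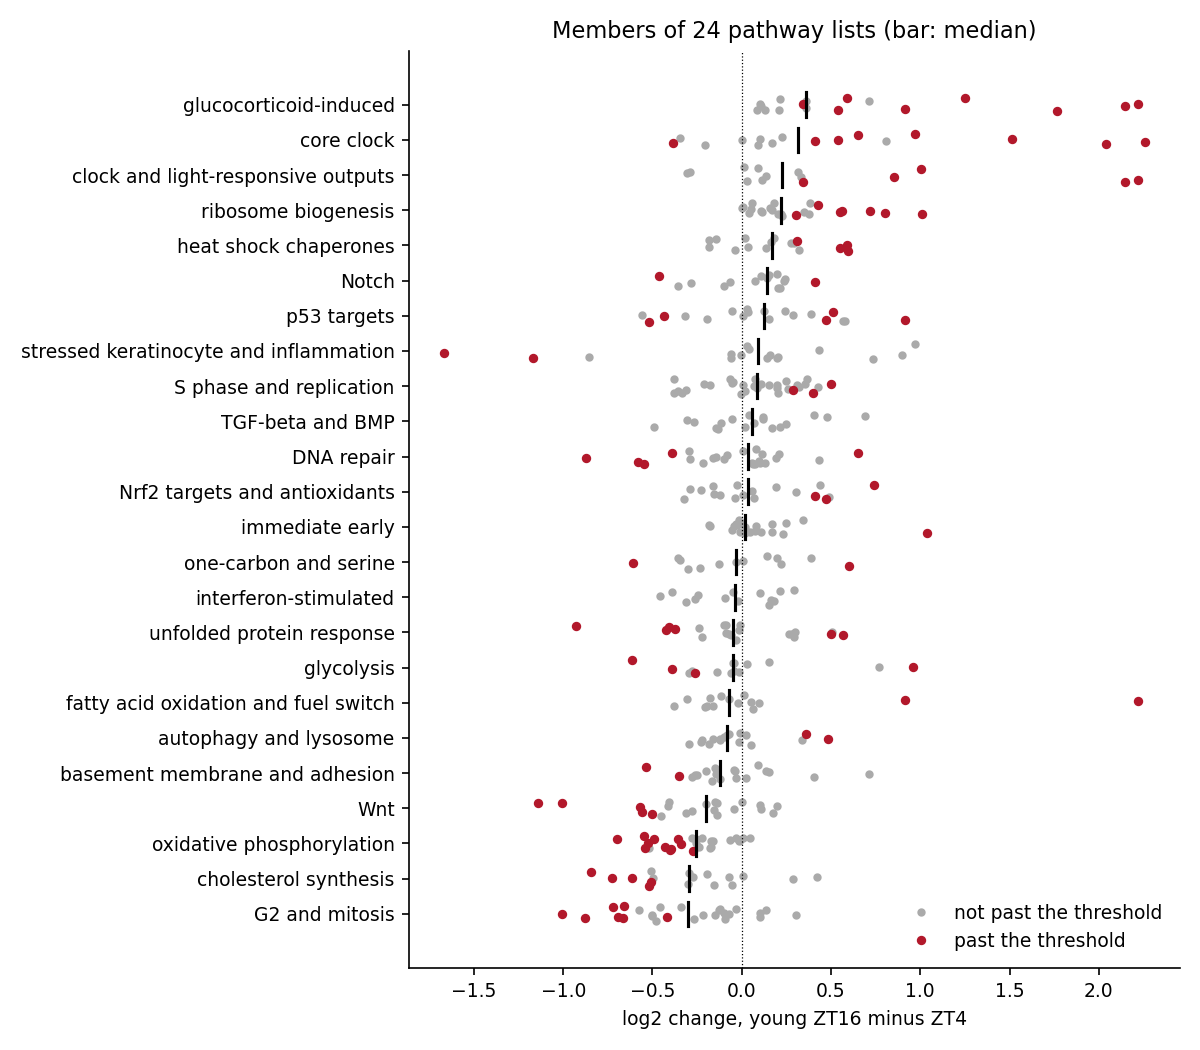
Log2 change of young ZT16 minus ZT4 (horizontal axis) for each tested member of the 24 pathway lists (rows), red where past the threshold and grey where not, with a black bar at the median of the list. Glucocorticoid-induced genes have the highest median (0.36) and genes of G2 and mitosis the lowest (-0.30), in lists chosen with earlier results of these data known.

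The neighbouring times of the day, measured in other young mice, were set against the same genes. Young ZT12 and ZT20 minus ZT0 and ZT8 gave 72 higher and 14 lower genes (0.562% and 0.109%, together 0.671%), and 8.61% at an unadjusted p under 0.05. Of the 590 genes higher at ZT16, 38.6% lay above 0 in that contrast (49.0% of all genes), with a median of -0.03. Of the 1437 lower, 46.8% lay below 0 (51.0% of all genes), with a median of 0.01. With array weights the same 590 and 1437 genes gave 56.8% and 63.3% (45.7% and 54.3% of all genes). Of the called genes 15 were called higher and 4 lower in both contrasts, 0 and 2 in the opposite direction. Per2 (0.84, limma adjusted p = 0.00117), Per3 (1.21, 0.00585), Tef (0.55, 0.00446), Sod2 (0.30, 0.0215), Gsta4 (0.66, 0.00677), Mthfd1l (0.80, 0.000183) and Dab1 (-0.54, 0.0482) passed in both in the same direction, while Pdk4 stood at -0.10, Tsc22d3 at 0.08 and Ripply3 at 0.00.

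The called genes were also summed into an index over the day. The index of an array is its mean over the higher genes minus that over the lower genes, with each gene centred. It lay between 0.23 and 0.80 at young ZT16 and between -0.92 and -0.36 at young ZT4, which the choice of the genes fixes. It lay between 0.00 and 0.33 at ZT8, between -0.31 and 0.22 at ZT12, between -0.19 and 0.09 at ZT20 and between -0.53 and 0.25 at ZT0. Since the genes were called at ZT16 and ZT4, the other times are a description and their place between these groups is no test.

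**Figure D4:**
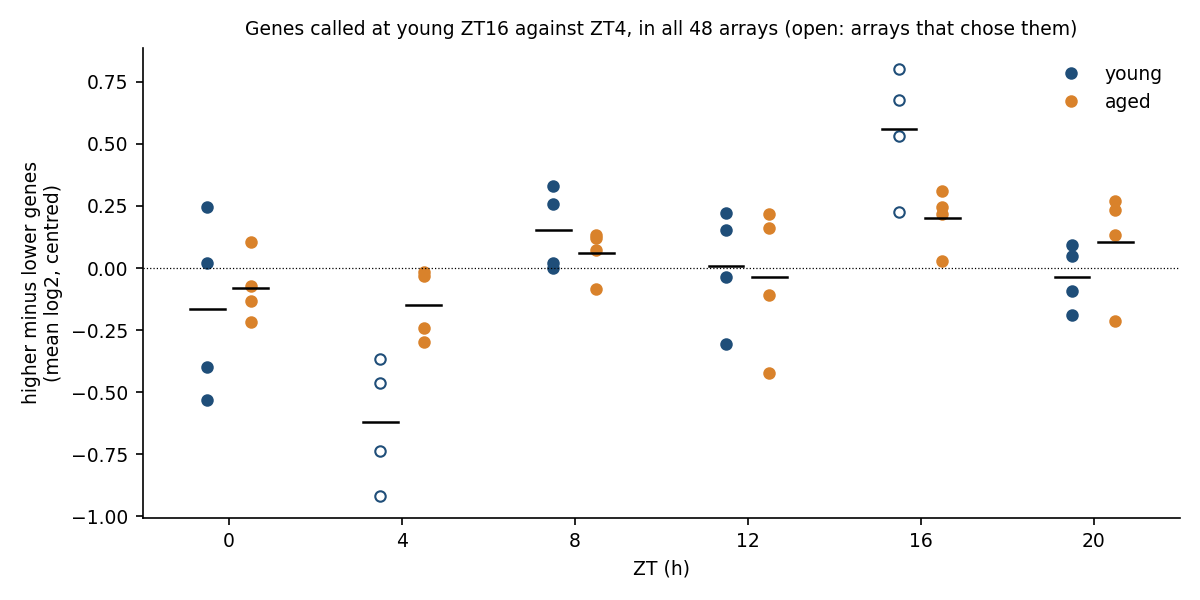
Index of each of the 48 arrays (vertical axis, mean log2 of the 590 higher minus the 1437 lower genes, centred per gene) against ZT in h (horizontal axis), young in blue and aged in orange, with black bars for the means. Open points are the arrays that chose the genes. Aged ZT16 (0.03 to 0.31) and aged ZT4 (-0.30 to -0.02) do not overlap.

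The aged mice gave the same contrast in arrays whose means the choice of genes did not use, although their spread entered the fit. There 49 genes were higher and 50 lower at ZT16 (0.382% and 0.39%, together 0.772%), by the same test, and 9.97% had an unadjusted p under 0.05. Of the 590 genes higher in young cells 74.4% lay above 0 in aged cells (40.4% of all genes), with a median of 0.12. Of the 1437 lower genes 90.1% lay below 0 (59.6% of all genes), with a median of -0.20. The index was between 0.03 and 0.31 at aged ZT16 and between -0.30 and -0.02 at aged ZT4, so that the groups did not overlap. Called at both ages in the same direction were 41 genes, 2.02% of those called in young and 41.4% of those called in aged cells. They included Per3 (2.20 in aged cells, limma adjusted p = 0.000381), Cry1 (1.25, 0.00595), Per2 (0.83, 0.0426), Tef (0.73, 0.01), Slbp (0.66, 0.0421), Mthfd1l (1.00, 0.000721), Sorcs2 (-1.27, 0.000381), Dab1 (-0.79, 0.0399) and Il33 (-0.85, 0.00141). Without aged ZT16 replicates 1, 3 or 4 there were 31, 22 and 20 higher genes, and without aged ZT4 replicates 1 or 3 there were 19 and 24. Without aged ZT16 replicates 1, 2 or 3 there were 24, 26 and 28 lower genes, and 29 without aged ZT4 replicate 1 or replicate 3.

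The difference of the contrast between the ages passed in 19 genes (0.148%), 10 with young minus aged above 0 (0.078%) and 9 below (0.0702%), with 1231 (9.6%) at an unadjusted p under 0.05, and in 354 with array weights. Without young ZT16 replicate 1 there were 43 and without aged ZT4 replicate 4 32. Without young ZT16 replicates 2, 3 or 4 there were 11, 7 and 8, without young ZT4 replicate 3 9, and without aged ZT16 replicates 1 or 4 or aged ZT4 replicate 1 there were 10, 12 and 6. Of the 5 with the smallest p, Ripply3 was at 8.74 ± 0.15 at young ZT4 and 6.66 ± 0.24 at young ZT16, but at 6.78 ± 0.22 and 6.74 ± 0.30 in aged cells (SD, n = 4). Young ZT4 stands above every other group of Ripply3, and the difference of the changes was -2.04 (limma adjusted p = 0.000215). Pdk4 was at 5.70 ± 0.54 and 7.92 ± 0.38 at young ZT4 and ZT16 and at 7.06 ± 1.10 and 6.61 ± 0.29 at aged ZT4 and ZT16, a difference of 2.67 (0.0111). Its aged ZT4 arrays were the widest spread. Ctbp2, a transcriptional co-repressor, was the 1 gene called at both ages in opposite directions, 0.46 in young and -0.43 in aged cells, and the difference of 0.88 (0.00622) did not pass with the mean of all probe sets (0.0521). Fam189a2 (-1.08 in young, -0.23 in aged, 0.00678) and Sh2d4a (-0.84 and 0.08, 0.0106) were the others. All 5 passed without each of the 16 arrays in turn.

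Tsc22d3 and Fkbp5 changed by 0.44 and 0.27 in aged cells, neither past the threshold (limma adjusted p = 0.725 and 0.865), and their difference between the ages did not pass either (1.70, 0.204 and 1.49, 0.322). In aged cells the 17 glucocorticoid-induced genes had a median of 0.00 and 0 were called, and 1 of them, Pdk4, differed between the ages.

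**Figure D5:**
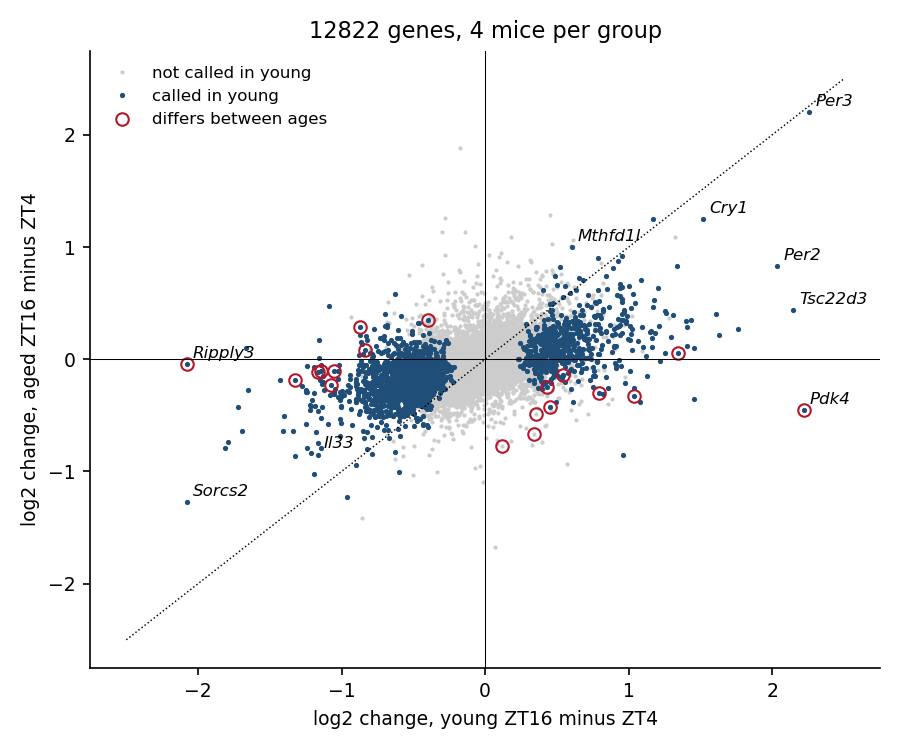
Log2 change of ZT16 minus ZT4 in aged cells (vertical axis) against young cells (horizontal axis) for 12822 genes, blue where called in young cells, grey where not, with red rings on the 19 genes whose change differs between the ages and a dotted line of equal change. Per3 lies near that line (2.26 and 2.20), Pdk4 and Ripply3 far from it.

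The genes that rose were longer than those that fell, a property the test did not use. The median span from the start to the end of the RefSeq gene was 47.6 kb for the 590 higher genes, 16.4 kb for the 1437 lower genes and 21.2 kb for all genes tested. In 4 equal bins of gene length, from short to long, 1.44%, 2.92%, 5.21% and 8.82% of genes were higher and 13.7%, 12.2%, 10.7% and 8.44% lower. Leaving out each of the 8 arrays in turn gave medians of 42.3 to 57.5 kb for higher and 15.6 to 22.5 kb for lower genes. In aged cells the median change by the same bins was -0.06, -0.04, -0.03 and -0.02, but the few called genes ran the other way, with a median span of 37.9 kb for the 49 higher and 48.3 kb for the 50 lower. At the neighbouring young times the median change by bin was 0.01 for the shortest and -0.02 for the longest genes. The median level of the longest bin minus that of the shortest, with each gene centred, was -0.22 in ZT4 replicate 1, the lowest of the 48 arrays. It lay between -0.07 and 0.04 in the other 3 arrays of ZT4 and between -0.01 and 0.10 at ZT16. The part of that array's level in the result was not tested beyond leaving it out (43.0 and 22.5 kb). Promoter GC content had a median of 64.7% for higher, 60.7% for lower and 60.3% for all genes with an entry. The E-box was in 12.9% of the promoters of higher genes, in 10.5% of lower genes and in 9.93% of all, and the D-box in 7 of 473, 3 of 1176 and 48 of 10301.

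Markers of other cell types were checked in the same arrays. Over all genes 4.6% were higher and 11.2% lower, together 15.8%, and 29.5% had an unadjusted p under 0.05. With such shares, 0 called in a short list does not show a steady mixture. The summed level of the 10 basal keratinocyte markers was 112.83 ± 0.13 at ZT16 and 112.86 ± 0.58 at ZT4 (SD, n = 4), and by limma 0 of the 10 were called (2 at an unadjusted p under 0.05). With 1 array left out 1 was called, higher without ZT16 replicate 1 or ZT4 replicate 2 and lower without ZT4 replicate 3. Of the 11 suprabasal markers Tgm3 rose (0.86) and Krt1 and Krtdap fell (-0.59 each), with 2 higher and 1 lower without ZT16 replicate 1, 0 higher without ZT16 replicate 2 or ZT4 replicate 3, and 1 lower without ZT16 replicate 3 or ZT4 replicate 1. The summed fibroblast level was lower at ZT16 (37.1 to 38.5 against 39.5 to 40.7) and that of T cells too (33.9 to 35.3 against 35.7 to 37.5), each with an exact permutation p of 0.0286, the smallest possible, and 0.271 after adjustment over 19 measures. Both lists contain Thy1, which fell by 1.79, and 0 of their other tested markers were called. Col1a1 stood at 4.39 ± 0.07 at ZT16 and 4.52 ± 0.14 at ZT4 (SD, n = 4), near the dim limit of 3.96. Lgr6, Lrig1 (-0.66) and Fabp5 (-0.67) fell among the 10 markers of upper follicle and sebaceous gland (1 lower without ZT16 replicate 3 or replicate 4, 1 higher without ZT16 replicate 1), and Gas6 (-0.57) among the 9 of the follicle bulge (1 higher without ZT4 replicate 2). Tgm3, Krt1, Krtdap, Lrig1, Fabp5 and Gas6 were named after their values were seen. By limma 0 of the tested markers of endothelium (3), adipocyte (3), skeletal muscle (7), Merkel cell (5), Langerhans and myeloid cell (7), melanocyte (4) and red blood cell (5) were called, with 3 at an unadjusted p under 0.05. Without ZT16 replicate 4 a melanocyte marker was higher, and without ZT4 replicate 2 or replicate 4 a red blood cell marker was lower. Array weights lay between 0.62 and 2.15 at ZT16 and between 0.33 and 2.65 at ZT4, the lowest in ZT4 replicate 1. The part of cell mixture in the results was not tested beyond the fit with cell mixture covariates, which called 600 higher and 1462 lower genes.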

How the data were processed

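RNA of 48 samples was measured on 1-colour Affymetrix arrays. TRizol served for extraction and the WTA2 kit for amplification, per the labels. The deposited values are log2 probe set signals that the authors made with RMA, per the submitters' processing notes; its version, and whether the 48 arrays were normalised as 1 set, were not given in the sources used here. Of 45141 probe sets 28898 carry 1 gene symbol and 551 several, while 15692 are not in the probe table. Per gene (17097) the probe set of highest mean was used, the lowest 25% were left out as dim (mean under 3.96), and 12822 genes were tested. Names, spans and promoters are from RefSeq (GRCm38.p6).

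A mean per age and time (12 groups, 48 arrays) was fitted in R 4.3.3 with lmFit and eBayes of limma 3.58.1 (2-sided, Benjamini-Hochberg over all genes, threshold 0.05). For single measures an exact permutation test was used. The fit was tested on simulated data. Tables were made with Python 3.11.15 and pandas 2.3.3.

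Members and lists (37 lists, 643 genes, 521 tested) were chosen with earlier results of these data known. Named are all tested core clock genes, the 12 largest rises and falls, up to 3 called members per pathway list by p, and the 5 smallest p of the difference between ages. Predicted genes were passed over. Others are said to be named after their values were seen. The number of arrays limits the precision.

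Alternatives changed the filter on dim genes, the probe sets used (all averaged), the normalisation (median centring or cyclic loess), the weights of arrays, eBayes (trend, robust), the arrays that give the spread, the call (1.5 times or more), covariates of cell mixture and a block of replicate numbers. Each compared array was also left out. Technical covariates and a fit without the 4 lowest-weight arrays were chosen after seeing the data.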

Additional observations from a re-analysis of the deposited data

Results flagged for a closer look

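Among the groups of 4 young arrays of named genes, 10 of 178 had 1 array apart from the other 3, where chance gives about 1 in 20. The rule sets the gap against the range of the 4 values, so a small gap can count. Parp1 at ZT16 was at 8.41 in the array apart and at 8.38 in each of the other 3. At ZT4, replicate 1 was apart in Clock (lowest, 5.93), Plk1 (highest, 6.51), Sod2 (highest, 10.2), Psph (highest, 8.71) and Fam189a2 (highest, 9.62). Replicate 2 was the lowest in Per2 (4.97) and Pcna (10.5), and replicate 3 in Herpud1 (9.43). At ZT16, replicate 3 was the highest in Ciart (6.8) and replicate 1 in Parp1 (8.41).

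The change from ZT4 to ZT16 differed between young and aged cells, by limma's test of the difference, in Pdk4 (young minus aged 2.67), Ripply3 (-2.04), Ctbp2 (0.883), Fam189a2 (-0.847) and Sh2d4a (-0.916).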

How the results depend on the processing

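The counts in young cells kept within 1.5 times of 590 higher and 1437 lower under the other filters, normalisations, covariates and array sets. Array weights gave 1133 and 2513, and a change of at least 1.5 times 249 and 520. Leaving out single arrays gave 236 to 775 higher and 706 to 1641 lower. In aged cells (49 and 50) centred arrays gave 30 higher, array weights 212 and 350, cell mixture covariates 16 and 30, the fit without the 4 lowest-weight arrays 76 and 97, and single arrays 19 to 52 and 24 to 41. The difference between ages (19) was 29 after cyclic loess, 354 with array weights, 30 with cell mixture covariates and 6 to 43 without single arrays. In the neighbouring times, with the genes each setting calls, 57.9% of higher and 63.9% of lower genes kept their direction with array weights, and 55.4% of lower genes with a change of at least 1.5 times. The sign turned in Cry2 (-0.0941 with cell mixture covariates, -0.00165 to 0.22133 without single arrays), Nr1d2 (-0.0659 with array weights) and Dbp (-0.00655 with centred arrays, -0.00384 with array weights, -0.11 with cell mixture covariates, -0.13 to 0.2261 without single arrays). The cause was not tested. Of 89 named genes 81 were past the threshold, 58 of them without each of the 8 arrays. Without the 4 arrays of lowest weight 11 of these calls were lost (Npas2, Rora, Slbp, Plk1, Aldoa, Gclc, Pdia4, Numb, Nrarp, Wnt3 and Psph, adjusted p from 0.0509 to 0.144). Of the same calls 8 were lost with probe sets averaged, 8 in the 8 arrays alone, 8 with cell mixture covariates, 3 with centred arrays, 3 with technical covariates, 2 in the 24 young arrays, 2 without the dim filter and 1 after cyclic loess.

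With the replicate number as a block there were 571 higher and 1412 lower genes, 1950 of them called in both fits, 40 and 47 in aged cells and 20 for the difference. Same-numbered young arrays of ZT16 and ZT4 had correlations of deviations of 0.09, -0.30, -0.16 and -0.08. Such correlations cannot decide whether arrays of the same number shared a harvest or hybridisation batch, which was not tested.

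The test sets each change against the spread between mice, with 4 mice a time. Any harvest or hybridisation batch shared by the mice of a time cannot be told apart from the time. Dates of harvest and hybridisation were not given in the sources used here. Low signal limits the size of change in Best2 (mean 4.34 over the 48 arrays), Rad51b (4.91) and Nek2 (4.94), the dimmest named genes tested.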
